A study of Mus musculus with 2 samples.

Results

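Arc is a short neuronal gene on the minus strand of mouse chromosome 15, at chr15:74669083-74672570 on mm10 (ENSMUSG00000022602.14, 3488 bp). It was examined here with the stretch from 30 kb upstream of its start to 10 kb past its end, 43488 bp in all. Every entry of the deposited DNase-seq peak lists, footprint lists and cut-rate lists in that window was taken. The window held 11 peaks of replicate 1 and 18 of replicate 2, which merged into 20 regions of 83423 in the whole genome. Of the 20 regions, 9 were called in both mice, 2 in replicate 1 only and 9 in replicate 2 only. Over the genome 48886 of 83423 regions, 58.6%, were called in both.

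DNase-seq maps the DNA that the nuclease DNase I can reach in nuclei, which is mostly promoters, enhancers and other sites held open by bound proteins. The mice were 2 females of the strain B6CASTF1/J, an F1 cross of B6 and CAST with a labelled age of 36 days, and the tissue was the left cerebral cortex. The labels number the animals differently under a shared donor entry. There was 1 library per mouse, here replicate 1 and replicate 2 by the number in the labels. The data therefore hold 1 group and no comparison between conditions. No stimulus or treatment is named, and whether the animals were at rest or active before the tissue was taken is not stated.

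Arc encodes a protein of the postsynaptic density that promotes the removal of AMPA receptors from synapses and that assembles into virus-like capsids. It is an immediate early gene, transcribed within minutes of synaptic activity without new protein synthesis, and it is widely used to mark recently active neurons. Its induction depends on the promoter and on an upstream enhancer, the synaptic activity-responsive element, on which CREB, SRF and MEF2 meet. In bulk cortex, a site open in few cells and a site weakly open in many cannot be told apart.

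The upstream activity element was called in both mice as 1 region centred at -6.7 kb, counted from the annotated start with negative values upstream. Its sequence is shown whole because it lies where the activity-responsive element has been described, 5′ to 3′ on the minus strand, the direction of Arc transcription, from the GRCm38 reference, as are those after it. Capitals mark the 32 bases that lay in a footprint, a short stretch protected from the nuclease, of both mice.
Upstream element, chr15:74679101-74679400: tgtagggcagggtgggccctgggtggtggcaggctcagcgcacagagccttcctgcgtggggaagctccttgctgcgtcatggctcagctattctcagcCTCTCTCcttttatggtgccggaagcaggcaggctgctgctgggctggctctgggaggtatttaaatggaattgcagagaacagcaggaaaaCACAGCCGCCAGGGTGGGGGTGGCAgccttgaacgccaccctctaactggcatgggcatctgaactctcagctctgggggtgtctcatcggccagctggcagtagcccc
The longer run of capitals is the shared part of a 26 bp footprint that was called in both mice, at -6640 to -6615 bp in replicate 1 and -6639 to -6614 bp in replicate 2. Only 9.02% of all footprints of replicate 1 and 5.65% of those of replicate 2 were as wide. The shorter run belongs to a footprint of 7 bp in replicate 1 and 13 bp in replicate 2.

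That shorter run ends on a CArG box, the site of the serum response factor SRF. The CArG box was searched as CC, 6 bases of A or T, and GG, on both strands, in 300 bp around each region's centre. The match lay at -6725 to -6716 bp, and the core of the cAMP response element CRE (TGACG, bound by CREB) lay at -6755 to -6751 bp. An ETS motif (CCGGAA, the core for Elk1, which binds beside SRF) followed the CArG box at -6713 to -6708 bp. The following stretch of the element is shown for the spacing of the CRE core and the CArG box, which are in capitals. The CRE core reads on the opposite strand.
Upstream element, motifs, chr15:74679276-74679335: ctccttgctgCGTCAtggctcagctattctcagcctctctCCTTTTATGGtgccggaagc
Footprints covered 5 of the 10 bases of the CArG box in each mouse, from the upstream edge in replicate 2 and from both edges in replicate 1, and only 1 base lay in footprints of both mice. The CRE core lay in no footprint. In replicate 1 a 10 bp footprint also covered 4 of the 6 ETS bases. A CArG box was present in 1.42% of the 27984 regions called in both mice over 1 kb from any annotated start, a CRE core in 14.5% and the ETS letters in 6.12%. A CArG box and a CRE core stood together in 65 of those regions, 0.232%. No exact match to the full CRE (TGACGTCA) or to a MEF2 site (Y, TA, 4 bases of A or T, TA, R) was found in the element. Looser MEF2 matches were not searched, so a MEF2 site that departs from these letters would be missed. These motif matches are descriptions of letters in the reference and not of binding. Which bases the CAST allele carries was not tested.

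The peak of the element reached a height of 2.04 in replicate 1 and 2.22 in replicate 2. Peak height is the authors' signal value, scaled per library by a factor the sources used here do not give, and heights were therefore ranked within each library. Among peaks over 1 kb from any start, the element stood at rank 8015 of 41384 in replicate 1 and at rank 1940 of 42595 in replicate 2. It was thus higher than 80.6% and 95.4% of such peaks, in the upper part of the list in both mice and nearer to the top in replicate 2. The called peaks were offset, chr15:74679101-74679280 in replicate 1 and chr15:74679161-74679400 in replicate 2, so the CArG box lay inside the peak of replicate 2 and just upstream of the peak of replicate 1. The deposited false discovery rate (FDR) of the cut rate reached a −log10 of 6.2 in replicate 1 and 13.9 in replicate 2 across the 300 bp.

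A region called in both mice 6 to 8 kb upstream was uncommon among genes. It was present at 1393 of 21755 protein-coding genes, 6.4%. A region there at least as high as that of Arc in both mice was found at 501 genes, 2.3%, a count that includes Arc itself. Both counts take any region in that stretch, also one at the start of another gene. They are therefore not shares of genes with a distal region alone.

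**Figure D1:**
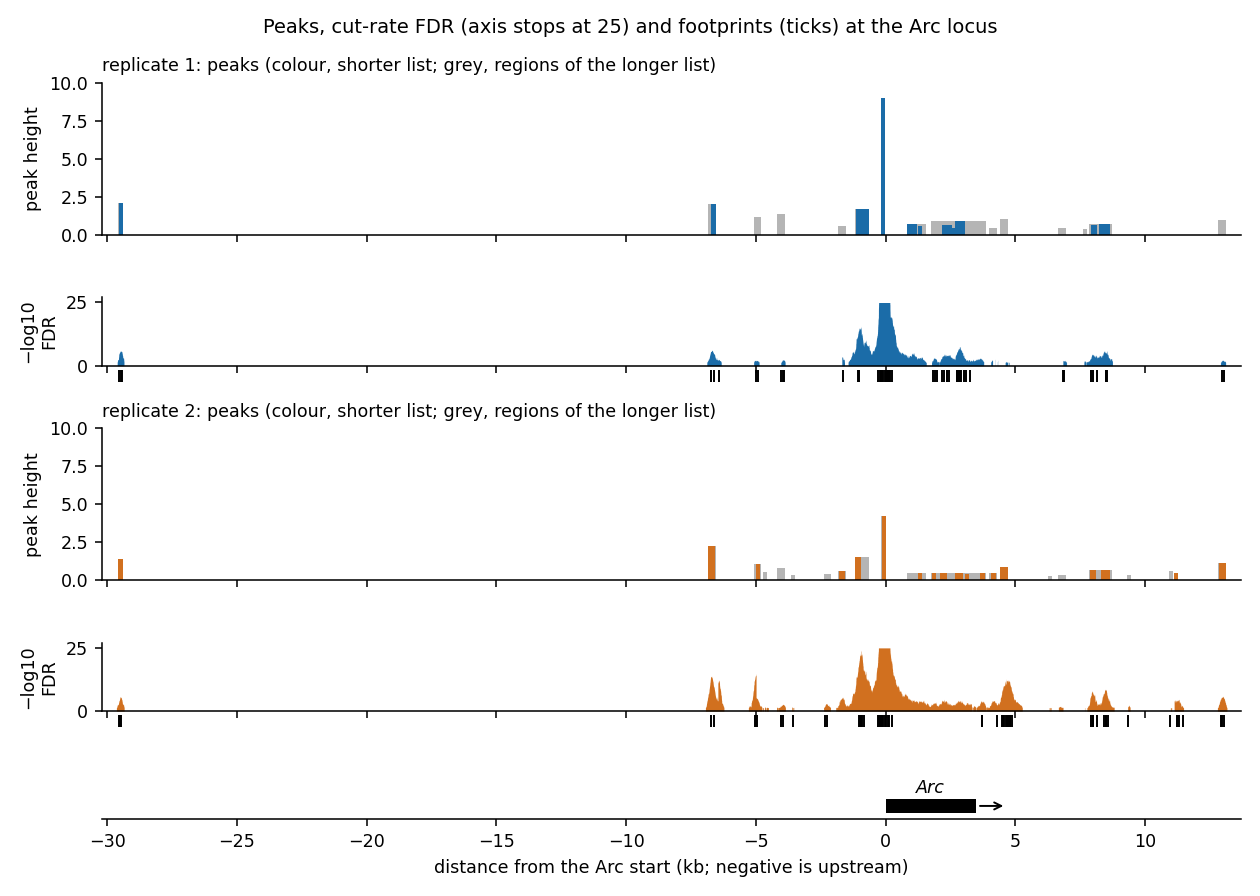
Peaks and cut-rate FDR across the Arc window in both mice, against distance from the Arc start in kb. Bars are peak heights (coloured for the shorter list, grey for regions of the longer list), filled curves the −log10 FDR with the axis stopped at 25, black ticks footprints. The promoter peak was the highest in both mice, at 9.005 and 4.20, and low signal runs through the gene and past its end.

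The promoter peak was the highest peak of the locus in both mice. It lay at chr15:74672601-74672720 in replicate 1, a width of 120 bp, and was 60 bp wide in replicate 2, both just upstream of the start and outside the transcript. Its height was 9.005 in replicate 1 and 4.20 in replicate 2. Among peaks centred within 1 kb of any annotated start it ranked 751 of 27824 in replicate 1 and 3401 of 26533 in replicate 2. It was thus above 97.3% and 87.2% of promoter peaks. A promoter region in both mice was found at 13401 protein-coding genes, 61.6%. Taking the highest promoter peak of each of these genes, Arc ranked 845 in replicate 1 and 3755 in replicate 2, and the median gene stood at 4.10 and 2.94. The promoter of Arc was therefore above the median in both mice, but its standing differed between them.

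The called promoter peak was narrow for its height. Among promoter peaks of the same library within 1.2 times its height in either direction, 12 of 1317 in replicate 1 and 18 of 3025 in replicate 2 were as narrow, 0.911% and 0.595%. The median width of those peaks was 220 and 260 bp. This comparison was chosen after the widths had been seen. The cut-rate FDR showed a broader domain than the called peak: its −log10 reached 111 in replicate 1 and 73.6 in replicate 2 at the promoter and stayed high well into the transcribed part.

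Footprints at the promoter mostly matched between the mice. The called promoter region held 3 in each mouse, against a median of 4 in replicate 1 and 3 in replicate 2 over all regions called in both mice. Within 300 bp of the start there were 12 in replicate 1 and 10 in replicate 2, of which 10 and 9 overlapped one of the other mouse. Over the genome 44.2% of the footprints of replicate 1 did so. That share covers sites of every height, and none was taken for other high promoters, so the match is not shown to be particular to Arc. The widest footprints of the locus lay within these 300 bp. In replicate 1 they were 38 bp wide at -52 to -15 bp and 40 bp wide at -116 to -77 bp, and in replicate 2 they were 38 bp wide at -42 to -5 bp and 39 bp wide at -117 to -79 bp. Of all footprints in replicate 1, 2.26% were at least 38 bp wide, and in replicate 2 the share was 1.201%. The upstream one of the pair held, in both mice, all 9 bases of an EGR motif (GCGNGGGCG, for the Egr zinc-finger family, themselves products of immediate early genes) at -113 to -105 bp. An SP/KLF match (GGGCGG) at -109 to -104 bp overlapped that motif. Further SP/KLF matches lay at -185 to -180 bp, inside footprints of both mice, and at -50 to -45 bp, inside a footprint of replicate 1 only. The 5-base core of NPAS4 (TCGTG), an activity-induced factor, was at -59 to -55 bp between the wide footprints of both mice. In the 20902 promoter regions called in both mice, the EGR letters occurred in 10.99%, SP/KLF in 58.6% and the NPAS4 core in 23.3%. The 300 bp around the peak were 71.7% G and C and held 30 CpG dinucleotides. The TATA letters (TATAAA) were not found there on either strand.

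**Figure D2:**
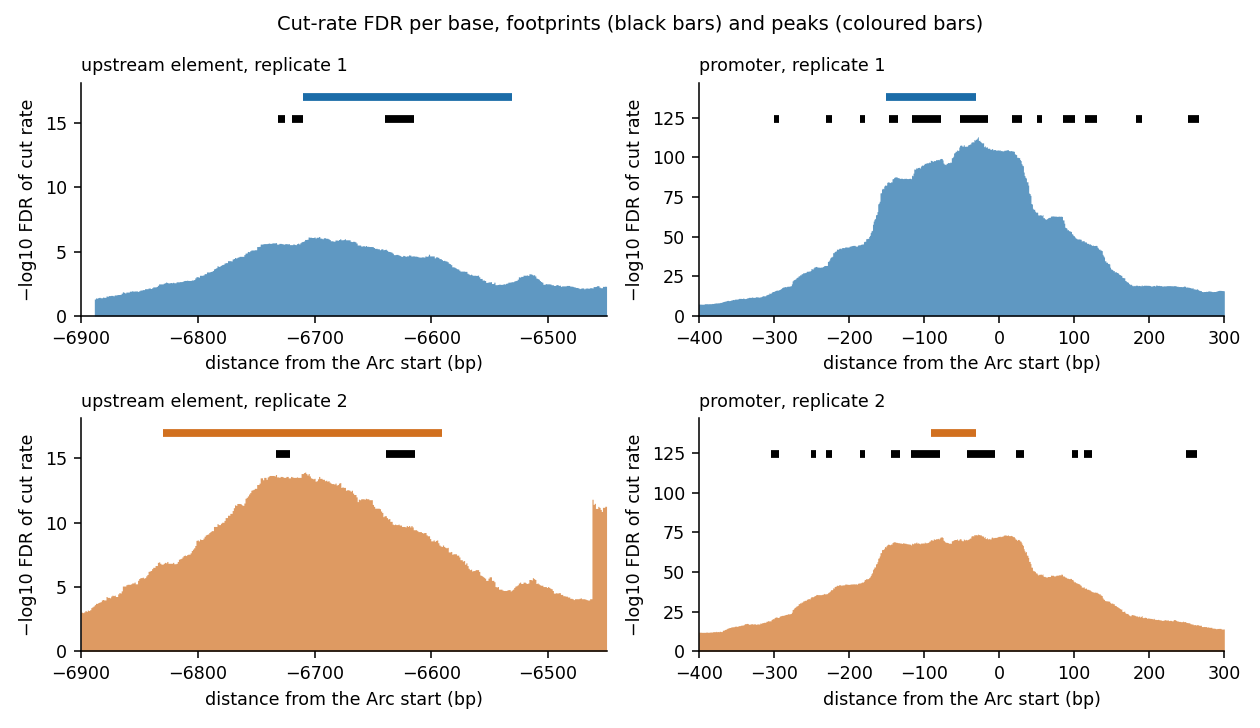
Cut-rate FDR per base (filled curve, −log10), footprints (black bars) and called peaks (coloured bars) at the upstream element and the promoter, against distance from the Arc start in bp, with the same axis for both mice in each column. Replicate 2 has the higher curve at the element, 13.9 against 6.2, and the lower one at the promoter, 73.6 against 111.

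Between the element and the promoter, a wide region centred at -0.9 kb was called in both mice. Merged over the mice it spanned 520 bp, at chr15:74673221-74673740, with a height of 1.66 in replicate 1 and 1.51 in replicate 2. Its −log10 FDR of 15.6 and 24.1 was the second highest of the locus in both mice, above that of the element. It holds another CArG box and ETS pair, shown in capitals because the same pair stands at the element. The ETS letters read on the opposite strand and come first here.
Region at -0.9 kb, chr15:74673479-74673528: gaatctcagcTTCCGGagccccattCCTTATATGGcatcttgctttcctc
The CArG box lay at -933 to -924 bp, with 7 of its 10 bases in a footprint of replicate 2 and none in one of replicate 1. The box and the ETS letters lay inside the peak of replicate 1, chr15:74673221-74673700. Both were just outside that of replicate 2, chr15:74673521-74673740. The region held 6 footprints of replicate 2 and 2 of replicate 1, and 1 of them was common to the mice. A CArG box was found in 1.00% of promoter regions. One more CArG box stood in the region at -1.7 kb, which was a peak of replicate 2 only in the shorter list (height 0.600) and of both mice in the longer list (0.578 and 0.600). It is shown to compare the letters, with the box in capitals.
Region at -1.7 kb, chr15:74674127-74674166: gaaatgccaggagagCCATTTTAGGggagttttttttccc
No footprint of either mouse touched this box. A CRE core lay at -1796 to -1792 bp, so that a CArG box and a CRE core fell in the same 300 bp window here too. Of the 6 upstream regions of the shorter list, 3 held a CArG box.

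The longer list, which adds lower peaks in each mouse, gave further upstream regions. A region at -4.0 kb, chr15:74676431-74676760, had a height of 1.34 in replicate 1 and 0.797 in replicate 2. It held the letters of a CTCF site (CCA, 2 free bases, AG, 2 free bases and GGC), a protein that anchors chromatin loops, here in capitals.
Region at -4.0 kb, chr15:74676489-74676524: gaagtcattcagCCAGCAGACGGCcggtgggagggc
The site lay at -3942 to -3931 bp, with 6 of its 12 bases in footprints of replicate 1, 8 in those of replicate 2 and 2 in both. These letters occurred in 19.5% of the distal regions called in both mice. A region at -4.9 kb, which the shorter list has in replicate 2 only, had heights of 1.16 and 1.09 in the longer list. Less the median log2 ratio of the mice over regions of the shorter list, its height was higher in replicate 2 by a log2 of 0.34. Its −log10 FDR was 2.2 in replicate 1 and 14.9 in replicate 2.

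The farthest upstream region, at -29.5 kb, lay 170 bp past the annotated end of the next gene, Jrk. Its heights were 2.09 and 1.39, above 81.3% and 82.9% of distal peaks, close to those of the element in replicate 1 and below it in replicate 2. It is printed because it held 1 wide footprint in both mice, 24 bp in replicate 1 and 18 bp in replicate 2, whose shared bases are in capitals.
Region at -29.5 kb, chr15:74701941-74702131: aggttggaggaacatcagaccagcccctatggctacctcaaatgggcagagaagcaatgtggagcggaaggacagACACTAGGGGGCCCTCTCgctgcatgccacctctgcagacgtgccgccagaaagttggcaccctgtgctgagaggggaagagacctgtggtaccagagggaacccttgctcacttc
No motif searched was matched exactly in this region. With 1 mismatch the CTCF letters were matched at -29486 to -29475 bp, within footprints of both mice. Matches that loose were found in 11 of the 20 regions of the window.

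The body of Arc was covered by signal almost from end to end. Bases under an FDR of 0.05 made up 93.9% of the gene in replicate 1 and 99.0% in replicate 2, whereas the median protein-coding gene had 2.25% and 2.36%. Of all 21755 protein-coding genes, 67 in replicate 1 and 59 in replicate 2 had a share at least as high, Arc included. Among the 19027 genes at least as long as Arc, it ranked 6 in replicate 1 and 1 in replicate 2, and first by the lower value of the mice. The next by that measure were Zfp703, a transcriptional repressor, with 84.7% in both mice, and then B430305J03Rik with 82.8% and 84.5%. At a stricter FDR of 0.001 the share of Arc was 61.5% and 65.6%, reached by 140 and 124 of all genes and by 17 and 7 of those at least as long. The restriction to genes as long as Arc was chosen after the values had been seen.

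Every part of the transcript took a share in this. All 198 bases of the 5′ UTR and all 1188 coding bases were under 0.05 in both mice. The 3′ UTR, 1671 bp over its exons, was covered to 87.8% in replicate 1 and 97.8% in replicate 2, and the introns, which interrupt it, to 97.9% and 100%. The coding sequence lies whole within the first exon. Signal in the body was low all the same. The regions called in both mice lay at 1.3, 2.3 and 2.9 kb, with heights of 0.553, 0.608 and 0.894 in replicate 1 and of 0.460, 0.482 and 0.454 in replicate 2. Each was below the median height of its list, 1.17 in replicate 1 and 0.909 in replicate 2. The region at 1.3 kb spanned the stop codon, that at 2.3 kb lay over introns and 3′ UTR, and that at 2.9 kb was in the last exon.

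**Figure D3:**
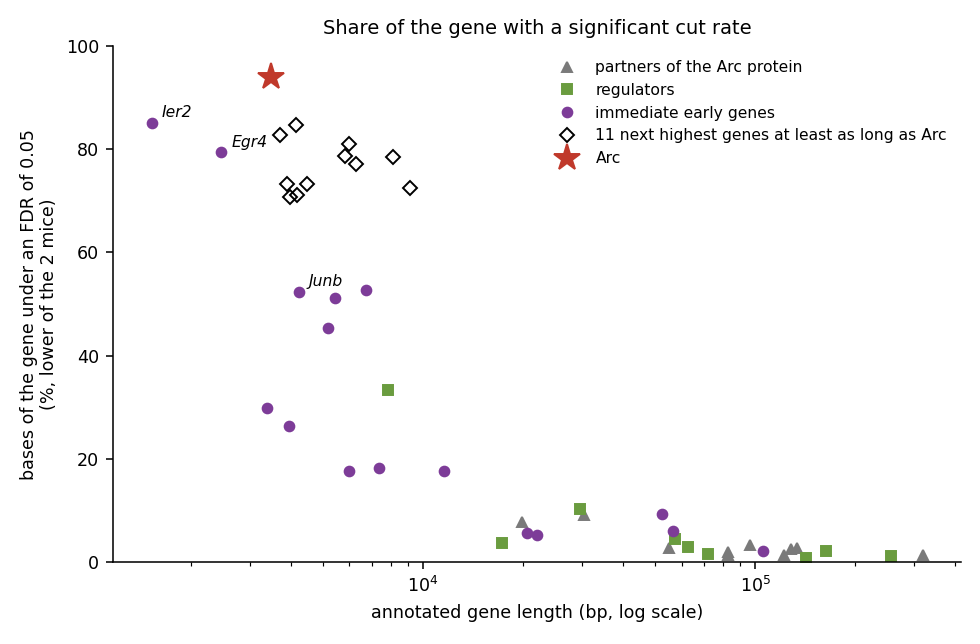
Share of each gene's bases under an FDR of 0.05, as the lower value of the mice, against annotated gene length on a log scale, for Arc, immediate early genes, regulators, partners of the Arc protein and the 11 next highest genes at least as long as Arc. Arc stands at 93.9% and the other genes plotted lie below it.

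In the later part of the gene body and just past its end, each mouse had footprints in a stretch where the other had none. Near the start the mice matched: the 4 footprints of replicate 2 in the gene body all overlapped one of replicate 1. The stretches given here were chosen after the footprints had been seen. From 1.5 to 3.5 kb past the start, in introns and 3′ UTR, replicate 1 had 17 footprints and replicate 2 had 0. From 4 to 5 kb, just past the gene's end, replicate 2 had 12 and replicate 1 had 0. The second stretch includes a region at 4.6 kb that was called in replicate 2 only in the shorter list, and in both mice in the longer list with heights of 1.00 and 0.881. Its −log10 FDR was 1.7 in replicate 1 and 12.7 in replicate 2. A low FDR went with many footprints there, and per the deposited read-me the footprints were called from the same rates, so these are not separate observations. In the first stretch the regions at 1.9, 2.3, 2.6, 2.9 and 3.1 kb had a −log10 FDR of 3.3, 4.7, 3.1, 7.6 and 2.3 in replicate 1. In replicate 2, without footprints, it was 3.6, 4.6, 2.7, 4.3 and 3.4. A clearly lower FDR in replicate 1 was thus seen at 2.9 kb but not at each region. In the whole window 54 footprints were called in replicate 1 and 63 in replicate 2, and 24 of each overlapped one of the other mouse, 44.4% and 38.1%. Over the genome 44.2% of the footprints of replicate 1 did so, so the share at Arc was near the background.

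Past the gene's end, the regions called in both mice lay at 8.0 and 8.4 kb. Their heights were 0.651 and 0.684 for the nearer one and 0.730 and 0.679 for the farther one, all below the median of the lists. The nearer region held CTCF letters at 8103 to 8114 bp, in no footprint. The other regions inside and past the gene were each called in 1 mouse in the shorter list. Those of replicate 1 lay at 1.0 kb in the coding sequence (height 0.693) and at 2.6 kb (0.468). Those of replicate 2 lay in the 3′ UTR at 1.9 and 3.1 kb (0.454 and 0.421), and past the end at 3.7, 4.2, 4.6, 11.2 and 13 kb. Past the end their heights were 0.454, 0.466, 0.881, 0.443 and 1.12, and the one at 13 kb alone was above the median of its list. That region was called in both mice in the longer list, at 0.973 and 1.12. The longer list also had regions of both mice at 4.1 kb (0.432 and 0.466) and 6.8 kb (0.426 and 0.331). It joined other regions into wider ones at 1.2, 2.8 and 8.3 kb. The rest of its regions were low and in 1 mouse, at 7.7 kb in replicate 1 (0.389) and, in replicate 2, at -4.7, -3.6, -2.3, 6.3, 9.4, 11 and 11.2 kb, between 0.280 and 0.578.

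Bases under 0.05 past the end came to 1925 of 10000 in replicate 1 and 3925 in replicate 2. In the 30 kb upstream the count was 2737 and 4267. Replicate 2 had more covered bases in each of the 3 stretches, and over the whole genome it had 42.7 Mb against 39.7 Mb.

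The height ratio of the mice was not uniform along the locus. Over the 45612 regions with 1 peak per mouse, the median ratio of replicate 2 to replicate 1 was 0.744, a log2 of -0.43, and the SD around it 0.48. Relative to that median, the promoter of Arc was lower in replicate 2 by a log2 of -0.67 and the upstream element higher by 0.54. The region at 2.9 kb stood at -0.55 and that at 8.0 kb at 0.50. These 4 lay beyond 1 SD of all regions and the other 5 within it. Departures at least as large as that of the promoter were seen at 16.2% of regions and as that of the element at 24.7%, so neither is rare between these 2 mice. The median depended on height and was -0.56 for regions above the median height in both mice. Less that median, the promoter stood at -0.54 and the element at 0.68, so which of them departs more depends on the median used. With 1 library per mouse the difference has no replicate check.

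**Figure D4:**
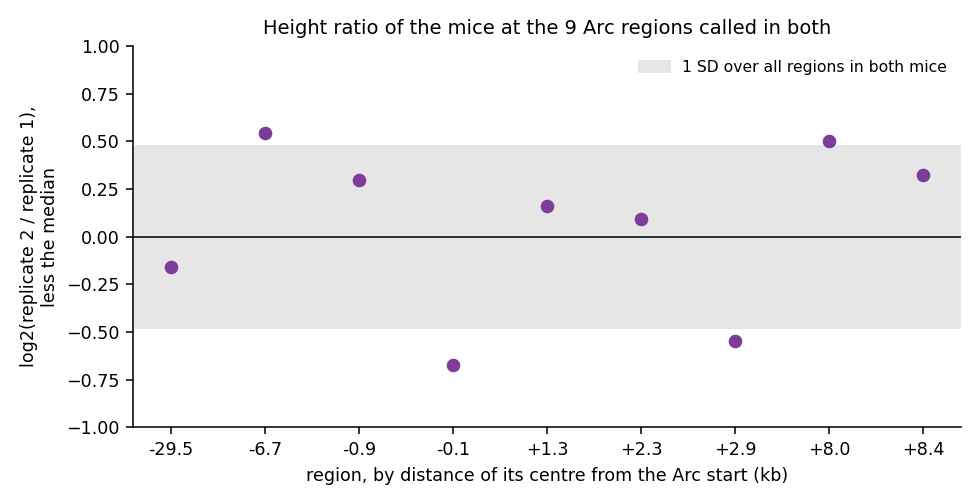
log2 ratio of peak height, replicate 2 over replicate 1, less the genome-wide median, at the 9 regions of the Arc window called in both mice, ordered by distance of the centre from the start in kb. The grey band is 1 SD (0.48) over 45612 regions. The promoter (-0.67) and the element (0.54) lie on opposite sides of it.

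Arc had more regions than most genes. With 9 regions called in both mice in its window, it was above 95.5% of protein-coding genes, whose median was 3 in the same kind of window. At least 9 were found at 987 of 21755 genes, 4.54%. The window of a long gene is wider, so genes from 0.5 to 2 times the length of Arc were taken as well, a choice made after the values were seen. Of these 4422 genes, with a median of 2 regions, 95 had at least 9, which is 2.15%.

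Other immediate early genes had open promoters too, with only a few showing a region at the distance of the Arc element. All 16 on the list had a promoter region in both mice, against 61.6% of all protein-coding genes, and their median height was 5.58 in replicate 1 and 3.81 in replicate 2. The highest on the list were Egr1 (9.24 and 5.33), a zinc-finger factor, Homer1 (7.54 and 5.42), a postsynaptic scaffold, Junb (7.22 and 4.77) and Fosb (6.33 and 4.98), parts of AP-1, and Dusp1 (6.41 and 4.63), a phosphatase of MAP kinases. In replicate 1 Egr1 alone of the 16 stood above Arc, and in replicate 2 there were 6. By the mean of the mice Egr1 was also above Arc. A region 6 to 8 kb upstream in both mice was present at 3 of the 16, against 6.4% of all genes. These were Fos (1.19 and 1.09), Junb (4.37 and 4.59) and the nuclear receptor gene Nr4a1 (4.46 and 4.43). The distance was counted from the outermost annotated start of each gene, whereas a promoter region could lie at any annotated start. In genes with a long annotated span, such as Dusp1 (56539 bp) and Bdnf (52308 bp), the highest promoter peak can lie far from that stretch. The element of Arc, at 2.04 and 2.22, was between that of Fos and those of Junb and Nr4a1 in both mice. The list had 1 to 10 regions per window with a median of 7, and 6 of the 16 had at least the 9 of Arc. The share of the gene under an FDR of 0.05 had a median of 30.2% and 24.1% over the list, and came nearest to Arc in Egr4 (93.8% and 79.4%) and Ier2 (85.0% and 87.6%), both shorter than Arc.

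**Figure D5:**
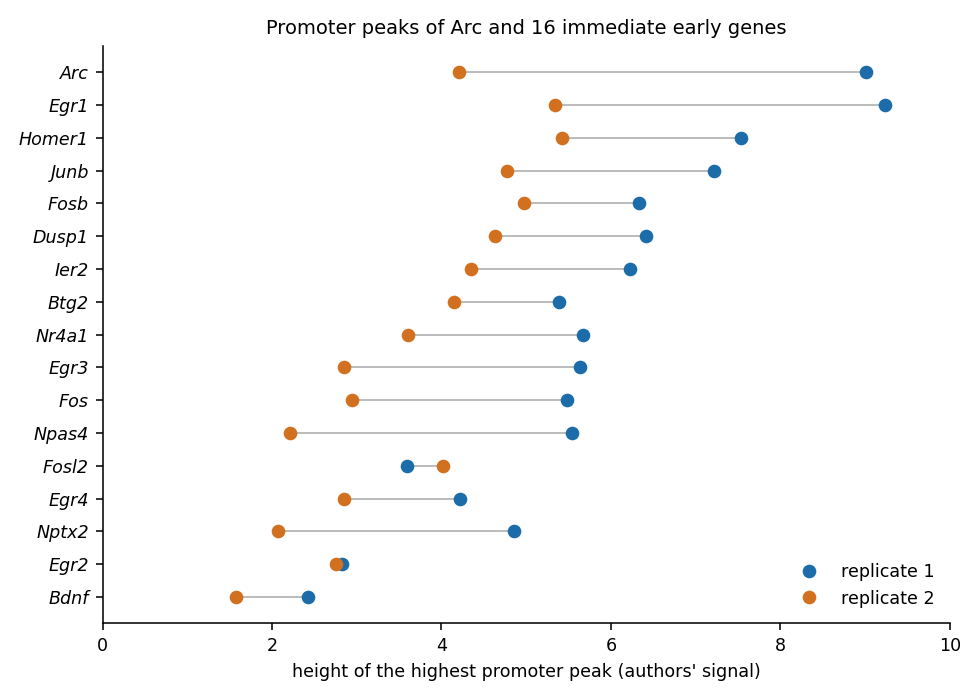
Height of the highest promoter peak (the authors' signal, linear axis) in replicate 1 and replicate 2 for Arc and 16 immediate early genes, each pair joined by a line. Arc reaches 9.005 in replicate 1, next to Egr1 at 9.24, and 4.20 in replicate 2, among the middle of the list.

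The genes that act on Arc and with its protein were open at their promoters. Of the regulators, 9 of 9 had a promoter region in both mice, among them Creb1, Srf and the MEF2 genes, with medians of 5.02 and 3.18. Of the protein's partners, 10 of 10 had one, with medians of 5.29 and 3.40. They include endophilin genes and the dynamin gene Dnm2 for endocytosis, the AMPA receptor subunit gene Gria1 and the ubiquitin ligases Rnf216 and Ube3a. A region 6 to 8 kb upstream was found at 1 regulator, the kinase gene Camk2a (1.44 and 1.97), and at 0 of the 10 partners. These counts stand beside 61.6% and 6.4% of all genes.

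The labelled tissue was checked with markers. A promoter region in both mice was present at 6 of 6 genes of excitatory neurons, the cells in which Arc is mainly known. It was present at 2 of 3 for interneurons, astrocytes and the oligodendrocyte lineage each, and at 0 of 3 for microglia, 0 of 2 for endothelium and 0 of 3 for liver. Since 61.6% of all protein-coding genes had one, 2 of 3 is near the background and the lists are short. The members without it were Gad1, Mog and Aif1, with one in replicate 1 only, and Aqp4, Cx3cr1, P2ry12, Cldn5, Cdh5, Alb, Apoa1 and Ahsg, with none.

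Of the 17 protein-coding genes that start within 250 kb of Arc, 6 had a promoter region in both mice, against 61.6% of all protein-coding genes. The nearest gene past its end, Mroh4, had none, and the nearest upstream, Jrk, had one with heights of 3.66 and 2.44. By the pattern of regions along 43 bins of 1 kb, from 30 kb upstream to 13 kb downstream of the start, the most similar genes were Cacna1s (Jaccard index 0.667), Otx1 (0.583), Bdnf and Zfp503 (0.556 each) and Irs1 (0.538). Arc filled 9 bins and shared 6 with Cacna1s, a calcium channel gene, and 5 with Bdnf, itself an activity-induced gene. The index was taken over both mice together and describes position only.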

How the data were processed

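DNase-seq libraries of left cerebral cortex from 2 mice of 1 group were used. Per the deposited read-me texts, the authors made peaks, footprints and cut-rate lists per library on mm10. Aligner, callers and thresholds: not given in the sources used here. Depth in reads is unknown. Peak height is a deposited signal value, the deposited footprint score is 1 number throughout and was not used, and the deposited p-value column is an FDR that lists positions under 0.05 only. Each library has a shorter and a longer peak list, and the shorter was the main one. Peaks of the mice were merged into regions when they overlapped by 1 bp. Genes and starts came from GENCODE M21 and sequence from GRCm38 (samtools 1.23.1, pysam 0.24.0), checked by 2195 of 2195 start codons on chromosome 15 that read ATG. A promoter region came within 1 kb of any annotated start of the gene, and upstream distances were counted from its outermost start. The code was tested on simulated data. With 1 group, no test across conditions was made.

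Named are Arc and every region in its window, the 5 immediate early genes with the highest promoters, list members with a region 6 to 8 kb upstream or without a promoter region, the nearest neighbours and the 5 genes most like Arc. Members and lists were chosen with earlier results of these data known.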

Additional observations from a re-analysis of the deposited data

How the results depend on the processing

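Of 36 alternatives, 28 left the value within 1.5 times (counts) or within 1 SD (other values). That SD was taken over all regions for the height ratios and over the 2 mice for the rest, which is a loose limit. Direction applied only to the height ratios of the promoter and the element, and both kept it. The 9 regions called in both mice became 14 with the longer peak list and 4 with peaks above the median height, and 11 to 18 when 1 library was used alone. With peaks above the median height, Arc was above only 78.3% of genes in its region count, against 95.5%. The 24 shared footprints compare with 54 to 63 in single libraries. Mean bases under the rate threshold fell from 9791 to 5969 at an FDR of 0.001. With 1 mismatch, 2 matches to the CTCF letters appeared in the upstream element, against 0, and still 0 to the full CRE or EGR letters. The CTCF letters were then found in 11 of the 20 regions. The cause was not tested.

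No paired analysis was possible because the data hold 1 group. The depth is unknown, so an uncalled site is not shown to be closed, and the mm10 reference stands for both parental genomes.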
